A study of Saccharomyces cerevisiae with 7 samples.

Results

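Close tandem mRNA pairs are neighbouring messenger RNAs that are read from the same strand of the yeast genome and lie 1 to 200 nt apart, so that the 3′ end of one transcript is followed at short distance by the 5′ end of the next. They were taken from the transcript annotation that accompanies a study of RNA secondary structure in Saccharomyces cerevisiae: mRNAs with a systematic name starting with Y were ordered along each chromosome, and every consecutive pair on the same strand with a gap of 1 to 200 nt was kept. The members were thus chosen by the deposited transcript positions. This gave 319 pairs among 1445 tandem pairs (22.1%, 95% Wilson interval 20.0 to 24.3) and 2984 neighbouring pairs of any orientation, made from 3000 mRNAs. Neighbouring here means consecutive among these mRNAs, so genes that the annotation does not list can lie between the partners. In the R64 reference annotation 314 of the 319 close pairs were neighbours. Of the 1102 tandem pairs more than 200 nt apart, called farther pairs below, 411 (37.3%) were. The close pairs held 586 mRNAs, 19.5% of those annotated. Gap, upstream 3′ UTR (untranslated region) and downstream 5′ UTR are what the selection itself used, so these lengths describe the pairs and are not a finding about them.

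In the study, polyA RNA of yeast in log-phase growth at 23 °C was folded in vitro and cut by RNase V1, which cleaves paired bases, in 4 libraries, or by RNase S1, which cleaves unpaired bases, in 3 libraries. The labels name no strain, mutant, drug or time course, and both groups share 1 culture condition. The cleavage values were not analysed here, their depth is unknown, and the annotation gives 1 position per feature with no value per library. No comparison below therefore has a replicate error, and none is a test: medians carry a 95% rank interval and shares a 95% Wilson interval, which cover counting over genes only.

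In budding yeast most genes are transcribed from their own promoter, a stretch of DNA that is kept poor in nucleosomes and that lies just before the transcript start. In a tandem arrangement the signals that end and polyadenylate the upstream mRNA and the promoter of the downstream gene usually lie between the coding regions of both. The upstream 3′ UTR carries A- and T-rich signals for cleavage and polyadenylation, and general regulatory factors such as Reb1 bind short motifs in promoters and are also known to stop RNA polymerase that reads through from an upstream gene.

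The sequences of the smallest gaps are shown because in these pairs the annotated end of one mRNA almost touches the annotated beginning of the next. The 13 gaps of up to 30 nt follow, read 5′ to 3′ along the strand of the genes in the R64 reference genome, with the gap in capitals and the flanking bases of the upstream 3′ UTR and the downstream transcript in lower case.
TIM54-PEP8 (chr10:335883-335907, plus strand): actattattaGCATTatgagtattt
HPT1-URH1 (chr4:1270838-1270866, plus strand): tcaaagtttaTTCCCTTAGcctcaccggt
MPM1-YJL068C (chr10:313906-313934, minus strand): gcgattcacaTAGTTCAATatgaaggttg
SYN8-NTG1 (chr1:128094-128122, minus strand): agcccaaaaAAAAAAAAAATatgcaaaag
CWC21-PHO8 (chr4:1420242-1420270, minus strand): tttgaacgcGCATTAGCAGCatgatgact
MGR1-EMC1 (chr3:46941-46970, minus strand): cactccaTTAATAACTAATACCTacattca
YOR302W-CPA1 (chr15:882875-882904, plus strand): aaaccaCTCCTAAAAATATTTCAAatgtcc
BUB3-STI1 (chr15:380843-380871, plus strand): tccaGAAAAAAAATTCAGATTCATCgctc
MAK31-PET18 (chr3:154657-154686, minus strand): tatCAACAATATCTGCAAGGAAGAACAatg
PAT1-FUB1 (chr3:250074-250102, minus strand): caTAAAAAACCCGTATTAGCATCAATAat
YCH1-ADE3 (chr7:905873-905902, plus strand): aaTTGAAGTTGTGAGACCAGGTAACGAGac
STP22-ILV6 (chr3:105559-105587, minus strand): aTCTTTAGAACATCTGAGCTCACTAACCc
XDJ1-GEP5 (chr12:322197-322225, plus strand): aCCTTCAGTAGAAAAATAGGAAGAATCCc

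In 6 of these 13 pairs the capitals run straight into the start codon, because no 5′ UTR is listed for the downstream gene: PEP8, YJL068C, NTG1, PHO8, CPA1 and PET18. There the gap measures the distance from the end of one mRNA to the start codon of the next, and any leader of the downstream mRNA lies inside the capitals or inside the upstream mRNA. In the other 7 pairs the downstream gene has a listed 5′ UTR, and the gap is bounded by annotated transcript ends on both sides. The 11 nt between SYN8, a SNARE protein of endosomes, and NTG1, a DNA glycosylase of base excision repair, hold only A and T. The 11 nt between CWC21, a splicing factor, and PHO8, the vacuolar alkaline phosphatase, are 45.5% A and T.

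The smallest gap, 5 nt, separates TIM54, a subunit of the mitochondrial TIM22 protein import complex, from PEP8, a subunit of the retromer that returns receptors from endosomes to the Golgi. The 3′ UTR of TIM54 is 191 nt long and fills nearly all of the 196 nt from its stop codon to the PEP8 start codon. The gap between HPT1 and URH1 is 9 nt, and both genes act in nucleotide salvage, HPT1 on hypoxanthine and guanine and URH1 on uridine. Here the space is shared differently, with a 114 nt 3′ UTR of HPT1 and a 206 nt 5′ UTR of URH1. MPM1, a mitochondrial membrane protein, lies 9 nt before YJL068C, an S-formylglutathione hydrolase of formaldehyde breakdown, with a 189 nt 3′ UTR in front of the gap.

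A gap of 16 nt lies between MGR1, an adaptor of the mitochondrial i-AAA protease, and EMC1, a subunit of the ER membrane protein complex. BUB3, a spindle checkpoint protein, and STI1, a cochaperone of Hsp90, lie 21 nt apart, with a short 3′ UTR of 40 nt for BUB3 and a 185 nt 5′ UTR for STI1. MAK31, a subunit of an N-terminal acetyltransferase, and PET18 lie 24 nt apart, and PAT1, an activator of mRNA decapping, and FUB1 lie 25 nt apart. Among the pairs named so far, some have a long 3′ UTR beside the small gap and others a long 5′ UTR.

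The pair of YOR302W and CPA1, 18 nt apart, is a special case of naming. CPA1 encodes the small subunit of carbamoyl phosphate synthase in arginine synthesis, and YOR302W is known as the upstream open reading frame in the leader of the CPA1 mRNA, which encodes the arginine attenuator peptide. The annotation lists YOR302W as an mRNA of its own, with a leader of 154 nt, 78 coding nt and a 3′ UTR of only 38 nt, and lists no 5′ UTR for CPA1. The 54 nt gap between RAX1, a protein of bud site selection, and YOR302W is another member, so an established leader reading frame borders 2 of the 319 gaps.

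**Figure D1:**
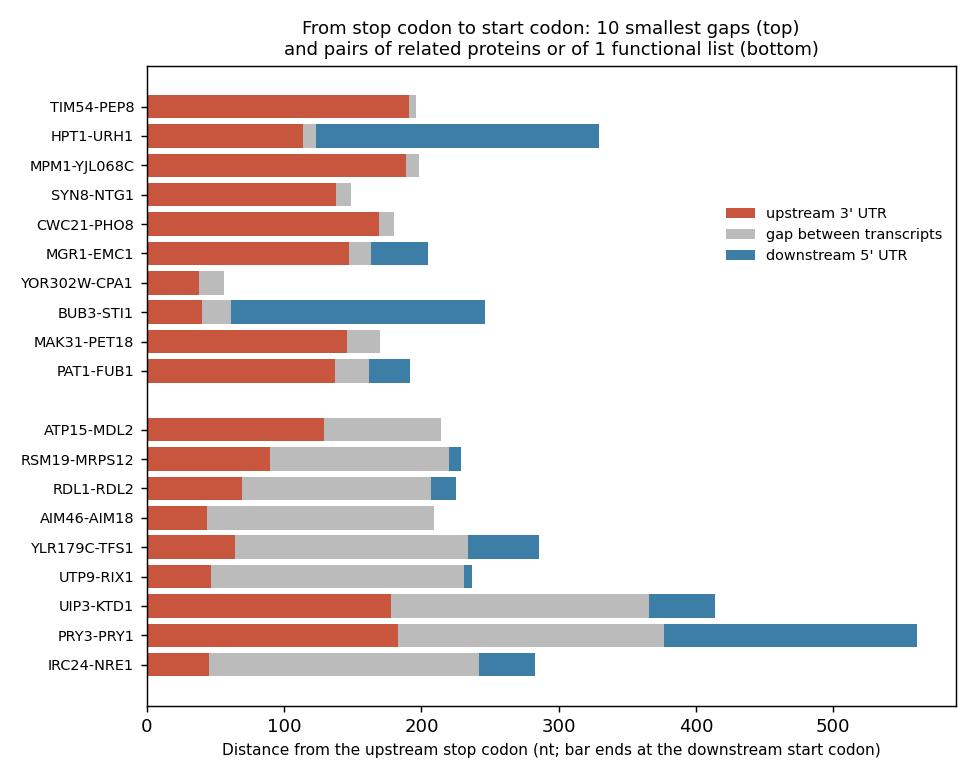
Bars run from the stop codon of the upstream gene to the start codon of the downstream gene in nt, split into upstream 3′ UTR, gap and downstream 5′ UTR, for the 10 smallest gaps (top) and for pairs of related proteins or of 1 functional list (bottom). The top bars are mostly 3′ UTR, with HPT1-URH1 and BUB3-STI1 mostly 5′ UTR, while in all bottom bars except ATP15-MDL2 the gap is at least 130 nt.

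Small gaps were less frequent than larger ones up to the limit. The median gap was 144 nt (interval 138 to 153, n = 319), with quartiles of 104 and 170.5 nt and extremes of 5 and 200 nt. A gap of 1 to 50 nt was found in 22 pairs, one of 51 to 100 nt in 52, one of 101 to 150 nt in 97 and one of 151 to 200 nt in 148. In bins of 25 nt the count was highest at 151 to 175 nt, with 81 pairs, and was 67 in the last bin up to 200 nt. Beyond the limit, 301 tandem pairs lay up to 500 nt apart and 801 lay farther apart, while 24 (1.66%) overlapped and 0 abutted. The limit cuts through a continuous distribution: IFA38-CDC28, BLM10-SEC4 and YJL068C-UTP18 lie just inside it at 200 nt, and FUN26-PMT2, HNT1-CDC48, RPL24B-NAT2 and MRPL31-HSK3 just outside, 1 nt farther apart. Pairs were on both strands, 161 on plus and 158 on minus.

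**Figure D2:**
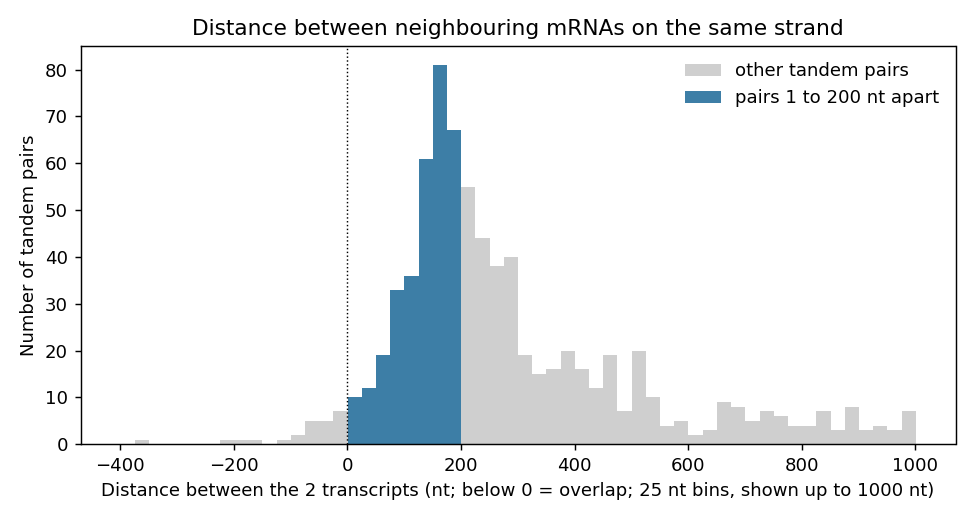
Number of tandem pairs (vertical axis) by distance between the transcripts in nt (horizontal axis, 25 nt bins, shown up to 1000 nt), with the 319 pairs at 1 to 200 nt in blue and the other tandem pairs in grey. Counts rise from 10 pairs in the lowest bin above 0 to 81 pairs at 151 to 175 nt and decline across the 200 nt limit without a step.

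From stop codon to start codon the pairs spanned a median of 277 nt (interval 267 to 287), with quartiles of 229 and 335.5 nt and a range of 52 to 1002 nt. The gap made up a median of 48.5% of this distance. The lower extreme is PET122-YER152C at 52 nt, where neither the 3′ UTR of PET122, a translational activator of a mitochondrial mRNA, nor a 5′ UTR of YER152C is listed. The same holds for PMP1-YCR024C-B, DMO1-ATP2, NBL1-AIM46 and PDR8-NEJ1, with 79, 130, 148 and 163 nt. In these 5 pairs the gap is the whole distance between coding regions.

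Of the inner ends, the upstream 3′ UTR was the longer one in most pairs. Its median was 90 nt (interval 86 to 96, n = 307), against 108 nt (103 to 113, n = 1058) in tandem pairs farther apart and 106 nt in all mRNAs. The downstream 5′ UTR had a median of 47 nt (42 to 51, n = 268), against 50 nt in farther pairs and 50 nt in all mRNAs. The 3′ UTR exceeded the 5′ UTR in 196 of 261 pairs with both listed (75.1%), a share close to the 74.5% of farther pairs (714 of 958). The lengths of the 2 inner UTRs had a Spearman rho of 0.00 across pairs (n = 261).

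Within the close pairs the upstream 3′ UTR was longer where the gap was smaller. Its median was 146 nt at gaps of 1 to 50 nt, 101 nt at 51 to 100 nt, 92 nt at 101 to 150 nt and 82 nt at 151 to 200 nt, and the rank correlation with the gap was -0.24 over 307 pairs. The corresponding value in farther pairs was 0.02 (n = 1058). The downstream 5′ UTR showed no such gradient, with medians of 72, 47, 46 and 48 nt and a rank correlation of -0.01 (n = 268). Gap and UTR share the transcript end as a boundary, so a 3′ UTR drawn longer makes the gap smaller by construction.

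The longest upstream 3′ UTR among the pairs, 795 nt, was that of IRC21, which runs past ABF2, a mitochondrial DNA-packaging protein encoded on the other strand, to end 163 nt before TVP18. The next were those of ALR1, a magnesium transporter, at 356 nt, HMS2, a transcription factor of pseudohyphal growth, at 348 nt, TFA1, a subunit of TFIIE, at 306 nt, and LCB2, a subunit of serine palmitoyltransferase, at 290 nt. The longest downstream 5′ UTR, 439 nt, was that of NHP6B, a high-mobility group chromatin protein, 139 nt after TIM12. It was followed by YOL036W at 388 nt, ALO1, an enzyme of erythroascorbate synthesis, at 382 nt, PTC1, a protein phosphatase, at 333 nt, and NEO1, a phospholipid flippase, at 330 nt. The 382 nt leader of ALO1 begins 38 nt after TUB1, the alpha-tubulin gene.

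A listed downstream 5′ UTR was missing more often at the smallest gaps. It was absent in 51 of 319 pairs (16.0%, interval 12.4 to 20.4), beside 321 of all 3000 mRNAs (10.7%). The upstream gene's own 5′ UTR, an outer end, was absent in 44 of 319 pairs (13.8%, 10.4 to 18.0), an overlapping interval. By gap, the downstream 5′ UTR was absent in 11 of 22 pairs at 1 to 50 nt, 13 of 52 at 51 to 100 nt, 12 of 97 at 101 to 150 nt and 15 of 148 at 151 to 200 nt. The upstream 3′ UTR was absent in 12 pairs. Without a listed 5′ UTR a gap is counted to the start codon, and such pairs had a median gap of 114 nt (n = 51) against 150 nt (n = 268) where the 5′ UTR was listed.

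The outer UTRs are the 5′ UTR of the upstream gene and the 3′ UTR of the downstream gene. The selection did not use them, except in the 52 mRNAs that are downstream in one pair and upstream in the next, whose outer UTR is an inner one of the other pair. Without these mRNAs the 5′ UTR of the upstream gene had a median of 43 nt (interval 36 to 50, n = 236), and with them 41 nt (35 to 48, n = 275), against 54 nt (51 to 58, n = 989) for upstream genes of farther tandem pairs and 50 nt (49 to 52, n = 2679) for all mRNAs. With the 52 mRNAs included, it lay below the median of all mRNAs in 158 of 275 close pairs (57.5%, interval 51.5 to 63.2) and in 449 of 989 farther pairs (45.4%, 42.3 to 48.5). Farther pairs that are also neighbours in the reference annotation had a median of 59 nt (53 to 64, n = 374). Without cytosolic ribosomal protein genes the medians were 43 nt in close and 56 nt in farther pairs. Along the gap classes the median was 43, 34, 39.5 and 50 nt. These are medians over genes of 1 annotation, and whether a difference of this size would recur in another set of transcript ends was not tested.

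The 3′ UTR of the downstream gene had a median of 107 nt (99 to 118, n = 261) without mRNAs of 2 pairs and 105 nt (96 to 116, n = 313) with them, close to 107 nt in farther pairs and 106 nt in all mRNAs. It lay below the median of all mRNAs in 157 of 313 pairs (50.2%). Extremes of this end included DED1, a DEAD-box RNA helicase of translation initiation, which lies 199 nt after the histidine synthesis gene HIS3 and has a 3′ UTR of 722 nt. The outer 5′ UTR of the upstream gene was longest at PPH21, a protein phosphatase 2A subunit, with 485 nt, and shortest at MSK1, the mitochondrial lysyl-tRNA synthetase, with 1 nt.

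**Figure D3:**
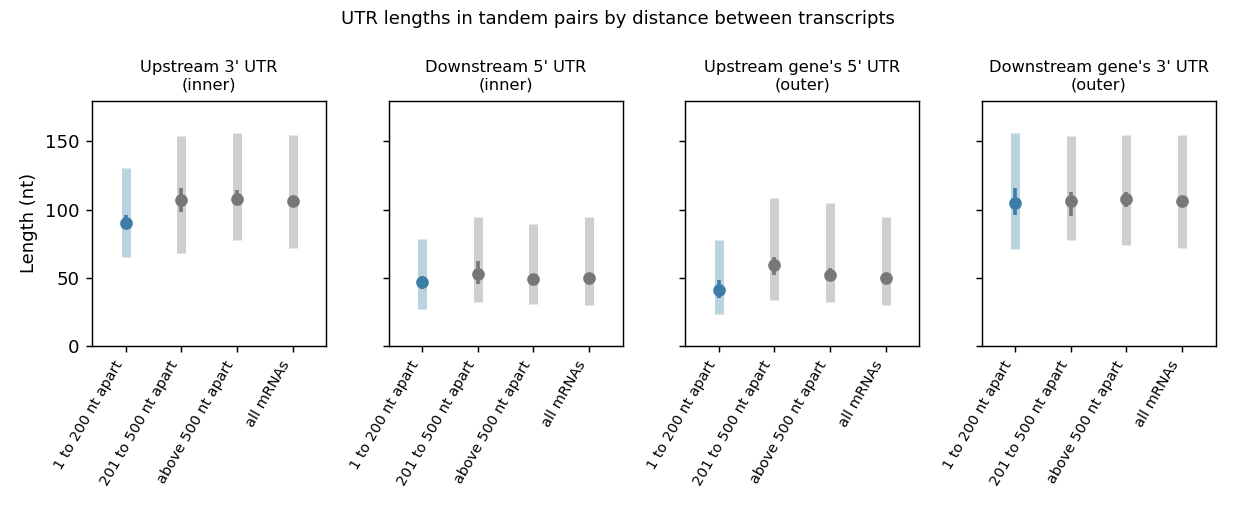
Length in nt of inner and outer UTRs for tandem pairs by distance between the transcripts and for all mRNAs; points are medians, thin lines 95% rank intervals and wide bars quartiles. The upstream 3′ UTR and the upstream gene's own 5′ UTR have lower medians in pairs 1 to 200 nt apart (90 and 41 nt) than in the other groups, whereas the downstream 5′ UTR and 3′ UTR are close to all mRNAs.

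Coding regions had somewhat lower medians than in farther pairs. The median was 1026 nt for upstream genes (interval 939 to 1110) and 1029 nt for downstream genes (933 to 1131), against 1177.5 and 1126.5 nt in farther pairs and 1080 nt (1041 to 1113) in all mRNAs. In the 411 farther pairs that are reference neighbours the medians were 1188 and 1239 nt. The longest was that of BLM10, a proteasome activator, at 6432 nt. Introns were found in 11 upstream genes (3.45%, interval 1.94 to 6.07) and 12 downstream genes (3.76%, 2.16 to 6.46), beside 78 (7.08%) and 81 (7.35%) of 1102 farther pairs and 199 of all 3000 mRNAs (6.63%). The intron shares were not computed without cytosolic ribosomal protein genes, of which only 8 of 138 stood in a close pair. Their part in the lower share was not tested.

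Gaps this small leave little room for another gene, and no protein-coding gene of the reference annotation lay between the partners in 314 of 319 pairs (98.4%). The same held for 411 of 1102 farther tandem pairs (37.3%). In the other 5 close pairs the reference has a coding gene in between that the deposited annotation does not place there: YCR050C between ARE1 and YCR051W, YBR090C between TIM12 and NHP6B, SLM6 between REI1 and MRPL37, ABF2 between IRC21 and TVP18, and YBR221W-A between PCS60 and PDB1.

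Close tandem genes were joined into runs. The 319 gaps linked the 586 mRNAs into 267 runs, of which 227 held 2 genes, 31 held 3, 6 held 4 and 3 held 5. In these runs 52 mRNAs were downstream in one pair and upstream in the next, so the pairs are not independent of each other. On chromosome 13, TDA9, DUS1, CFF1, CPR3 and BET5 followed each other with gaps of 72, 54, 78 and 164 nt over 7791 nt. No 5′ UTR is listed for CPR3 and BET5, so the gaps before them are counted to the start codon. The products of this run include a tRNA dihydrouridine synthase (DUS1), a mitochondrial cyclophilin (CPR3) and a subunit of the TRAPP tethering complex (BET5), which act in different processes.

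On chromosome 3, STP22, ILV6, SGF29, GBP2 and YCL012C had gaps of 27, 195, 84 and 166 nt over 5659 nt, joining an ESCRT-I subunit of endosomal sorting, the regulatory subunit of acetolactate synthase, a SAGA chromatin subunit and an mRNA export factor. On chromosome 10, MRPL8, DLS1, MPM1, YJL068C and UTP18 had gaps of 142, 83, 9 and 200 nt over 5651 nt, from a mitochondrial ribosomal protein to a factor of small-subunit rRNA processing. The last link of this run lies exactly at the 200 nt limit, so a limit 1 nt lower would leave it with 4 genes. No 5′ UTR is listed for DLS1, MPM1 and YJL068C, so the gaps before them are counted to the start codon.

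There were 6 runs of 4 genes. PIB2-PGD1-TRP5-CWH41 joins a TORC1 regulator, a Mediator subunit, tryptophan synthase and glucosidase I of N-glycan processing, with gaps of 133, 133 and 161 nt. VHT1-SPT4-COX18-ADE6 joins the biotin transporter, a transcription elongation factor, a mitochondrial membrane insertase and an enzyme of purine synthesis, with gaps of 167, 157 and 195 nt. The gaps were 187, 16 and 141 nt in PDI1-MGR1-EMC1-POF1, which begins with protein disulfide isomerase, and 120, 100 and 40 nt in ARE1-YCR051W-RSC6-THR4, which ends with threonine synthase. REC107-TES1-ESS1-ILV3 runs from a meiotic recombination protein to dihydroxyacid dehydratase of branched-chain amino acid synthesis, with gaps of 194, 104 and 77 nt. MSK1-RNH201-LAT1-TOM7 includes 3 genes of mitochondrial proteins and a subunit of RNase H2, with gaps of 100, 180 and 174 nt. In the runs of 4 genes, PGD1, SPT4, COX18, TES1 and THR4 have no listed 5′ UTR. The gaps before them are counted to the start codon.

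**Figure D4:**
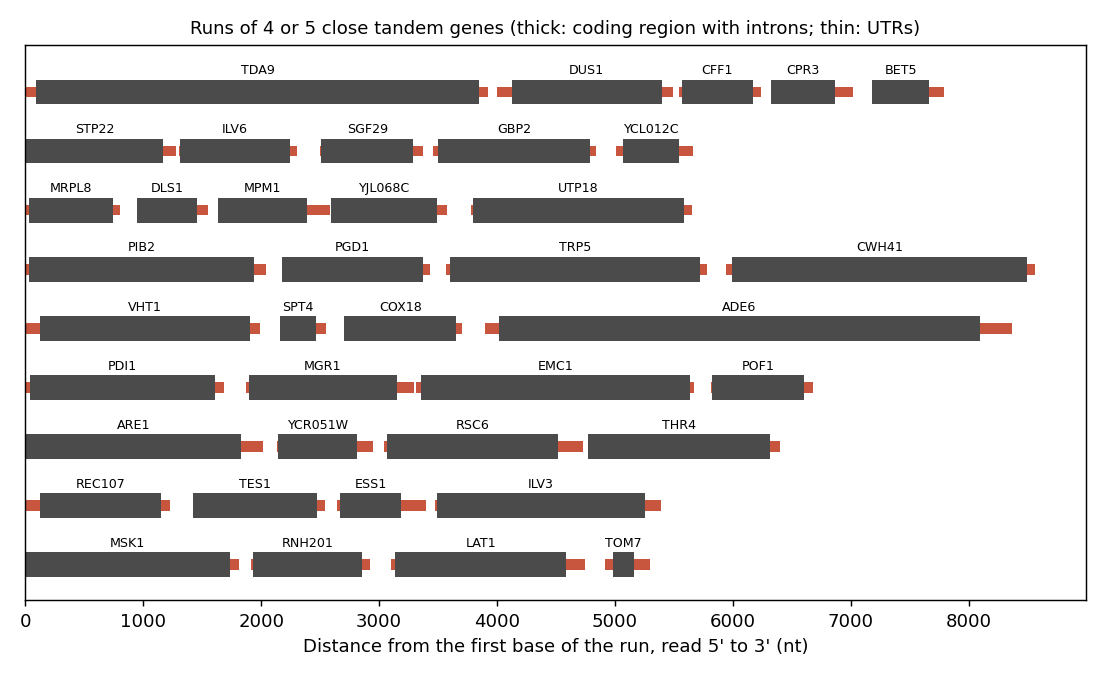
Each row is a run of 4 or 5 close tandem genes drawn to scale in nt from its first base, read 5′ to 3′, with coding regions (introns included) as thick dark bars and UTRs as thin red bars. Runs span 5300 to 8562 nt, and the spaces between neighbouring transcripts, 9 to 200 nt, are narrow beside the coding regions. Where a dark bar begins with no red bar before it, no 5′ UTR is listed, and the space is counted to the start codon.

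Tandem duplicates were rare. With related proteins taken as at least 30% identity over at least 50% of the shorter protein, 6 of 319 pairs qualified (1.88%, interval 0.865 to 4.04), beside 15 of 1101 farther tandem pairs (1.36%), 8 of 411 farther reference neighbours (1.95%), 9 of 770 convergent pairs (1.17%) and 16 of 768 divergent pairs (2.08%). The intervals of these shares overlap. All shares count alignments above the 2 limits and were not sorted by protein family in any group. Farther tandem pairs counted here include MNN11-PFD1 and TAD2-NUP192, and divergent pairs include GLN4-RPS28A and RPB10-NPT1. The shares therefore do not compare how frequent duplicates are in each group. UIP3 and KTD1, members of the DUP240 family of membrane proteins on chromosome 1, were 58.8% identical over the whole shorter protein, with a gap of 188 nt. IRC24 and NRE1, annotated as sepiapterin reductase family proteins, were 54.2% identical at a gap of 197 nt.

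YLR179C and TFS1, an inhibitor of carboxypeptidase Y, were 45.0% identical at a gap of 170 nt. RDL1 and RDL2, thiosulfate sulfurtransferases, were 42.7% identical at a gap of 138 nt, and AIM46 and AIM18 were 40.3% identical at a gap of 165 nt. The remaining pair, ATP15 and MDL2, reached 31.0% identity over 75.8% of the short ATP synthase epsilon subunit, a coverage near the 79.1% of RDL1 and RDL2. Its products, an ATP synthase subunit and an ABC transporter, are annotated as different protein families. The pair PRY3 and PRY1, secreted sterol-binding proteins 194 nt apart, was 66.7% identical but over 49.2% of the shorter protein, just under the coverage limit. The 5 pairs other than ATP15-MDL2 thus had gaps of 138 to 197 nt. Tandem pairs of related proteins beyond the limit included YPS3-YPS1 at 254 nt, FCY21-FCY22 at 297 nt, PMT1-PMT5 at 299 nt and PHO5-PHO3 at 397 nt.

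Both genes stood on the same one of 19 functional lists in 3 pairs (0.940%, interval 0.320 to 2.73), beside 17 of 1102 farther tandem pairs (1.54%). The counts were 8 of 411 farther reference neighbours (1.95%), 7 of 771 convergent pairs (0.908%) and 18 of 768 divergent pairs (2.34%). RSM19 and MRPS12, both proteins of the small subunit of the mitochondrial ribosome, lie 130 nt apart on chromosome 14. UTP9 and RIX1, factors of small-subunit and large-subunit ribosome assembly, lie 184 nt apart on chromosome 8. The third such pair was PRY3-PRY1. A match was possible only in the 26 close pairs with both genes on some list (8.15%), beside 90 of 1102 farther pairs (8.17%). Pairs whose genes act in a process with no list here are not counted, such as HPT1-URH1 and, 158 nt apart, PAD1 and FDC1, which act together in the decarboxylation of phenylacrylic acids.

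The lists were represented unevenly among the close pairs, beside 19.5% of all mRNAs. Cytosolic ribosomal proteins had 8 of 138 genes in a close pair (5.80%), 6 of them upstream, such as RPL28 76 nt before YGK1 and RPL4B 95 nt before PSF1. Glycolysis and fermentation had 1 of 24, the enolase gene ENO2, and the histones and hexose transporters had 0 of 10 and 0 of 5. Cell wall and secreted proteins had 5 of 42 and RNA polymerase subunits 4 of 30.

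At the other end, the vacuolar sorting list had 7 of 19 genes in a close pair (36.8%, 19.1 to 59.0), among them PEP8 and STP22 at gaps of 5 and 27 nt. The chaperones had 13 of 41 (31.7%, 19.6 to 47.0), including 4 of the cytosolic chaperonin: CCT6, CCT3, CCT5 and TCP1. STI1 and the cyclophilins CPR2, CPR8, CPR4 and CPR3 began 21, 52, 52, 68 and 78 nt after their upstream neighbour. These are 5 of the 9 chaperone genes that are downstream in a pair, and 74 of all 319 pairs have a gap of up to 100 nt. The 5 were picked out after their values were seen. Mitochondrial ribosomal proteins had 16 of 59 (27.1%, 17.4 to 39.6), with gaps from 116 nt between RSM25 and LYS12 to 185 nt between EOS1 and SWS2. Mitochondrial import had 9 of 34, the respiratory chain and ATP synthase 10 of 41, secretion and ER 17 of 72, and amino acid synthesis 14 of 72. Of the 19 lists, only the cytosolic ribosomal proteins and the chaperones had an interval that leaves out 19.5%, and no list was tested against the rest.

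Promoter motifs were searched because the promoter of the downstream gene usually lies in or near the gap. The motif TTACCCG is the core bound by Reb1 and was searched on both strands. The motif TATAAA is a common form of the TATA element of promoters. Searches for TATATA, a motif of the 3′ end signals of yeast mRNAs, and for AATAAA were added. A match is a stretch of letters and not a bound site, and matches of the last 3 motifs can overlap each other. In the window from 250 nt before to 50 nt after the start codon, TTACCCG stood before 25 of 319 downstream genes (7.84%, interval 5.36 to 11.3), beside 9.04% of all annotated mRNAs and 7.06% of all 6020 coding genes of the reference. The share is thus near the background.

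Where the motif did occur, its position could be read against the transcript ends. Between stop and start codon TTACCCG occurred once each in 26 of the 311 pairs whose distance matched the reference. Of these 26 sites 24 lay wholly inside the gap and 2, in PGD1-TRP5 and HRD3-SEC13, across a transcript end, while 0 lay in 32074 nt of upstream 3′ UTR and 0 in 17863 nt of downstream 5′ UTR. The gaps made up 45.6% of the bases searched. The 24 sites ended 67 to 149 nt before the downstream transcript, with a median of 107.5 nt. The selection itself holds any site in the gap within 200 nt of that transcript. Tandem reference neighbours more than 200 and up to 500 nt apart showed a like placement, with 37 of 38 sites in the gap and a median of 139 nt, so this placement was not seen in close pairs alone.

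As examples of the motif, in capitals, the gap sites in pairs with a gene of a ribosomal, translation factor or vacuolar proton pump list are shown. The functions seen here follow from this choice, and a link between the motif and gene function was not tested. The sites are read along the strand of the genes in R64, so that CGGGTAA is the motif on the other strand.
SEC18-RPG1 (chr2:398411-398437, minus strand): tatcacccacCGGGTAAagatgataat
NPC2-MRP10 (chr4:372091-372117, plus strand): gttcgttctcCGGGTAAtgcggacttt
AFG1-VMA8 (chr5:58226-58252, plus strand): tgattttttgTTACCCGaatgcaaatt
THR1-VMA16 (chr8:160600-160626, plus strand): tcttcttccgTTACCCGtcttttctat
RPL42A-CBK1 (chr14:332288-332314, plus strand): gcgtgtcggtCGGGTAAccatcattct
RSM19-MRPS12 (chr14:694909-694935, minus strand): catttcagtcTTACCCGagcgacaaaa
VPS17-EFT1 (chr15:574890-574916, plus strand): atattaatccCGGGTAAacttccgtgt

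In the 168 nt between VPS17, a retromer subunit, and EFT1, one of the genes of elongation factor 2, the motif lay 31 nt after the end of the VPS17 mRNA and 130 nt before the EFT1 transcript. Between SEC18, a factor of membrane fusion, and RPG1, a subunit of initiation factor 3, it lay 64 nt after the upstream end and 117 nt before the downstream start. Between RSM19 and MRPS12 these distances were 36 and 87 nt. Of the 24 sites in gaps, only that between CFD1 and CMI7 had the reverse order, with 98 nt from the upstream end and 89 nt to the downstream start. The median distance from the upstream end was 40.5 nt over the 24 sites of close pairs and 106 nt over the 37 sites of the reference neighbours up to 500 nt apart, a distance that the limit on the gap itself keeps short in close pairs.

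TATAAA was spread over the whole intergenic stretch. Read on the strand of the genes, 148 sites fell in 116 of 311 pairs, with 61 in the upstream 3′ UTR, 57 in the gap, 24 in the downstream 5′ UTR and 6 across a transcript end. Per 1000 nt this was 1.90 sites in the 3′ UTR, 1.36 in the gap and 1.34 in the 5′ UTR. The 57 sites in the gap ended a median of 57 nt before the downstream transcript (quartiles 36 and 72 nt). Over all 120 sites before the transcript start, those in the upstream 3′ UTR included, the median was 143 nt, beside 107.5 nt for the Reb1 motif. TATATA was denser in the upstream 3′ UTR, with 9.98 sites per 1000 nt against 1.41 in the gap and 1.62 in the 5′ UTR.

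**Figure D5:**
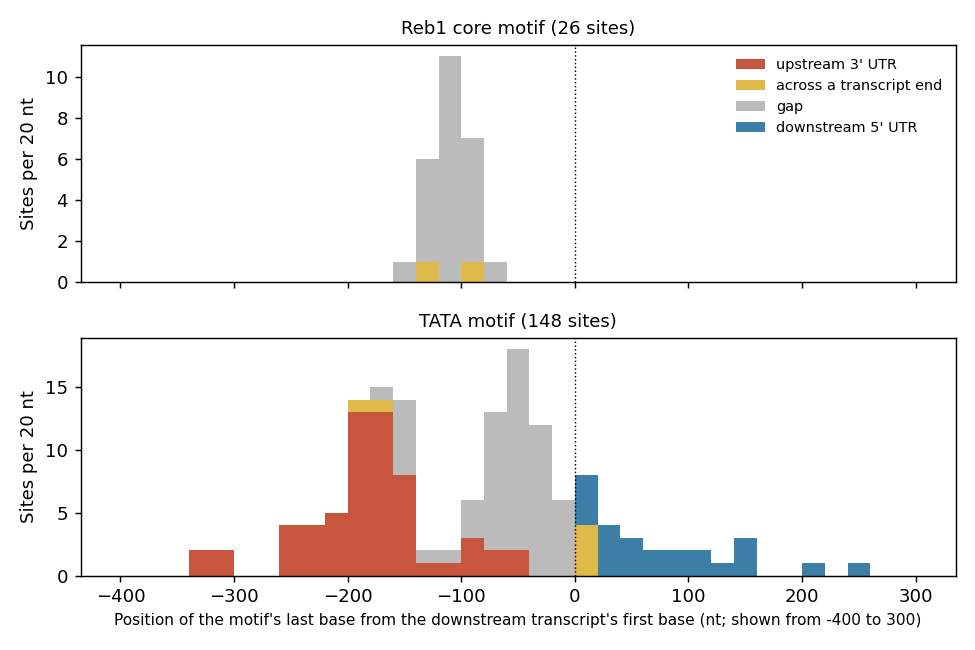
Number of motif sites per 20 nt (vertical axis) by position of the last base of the motif relative to the first base of the downstream transcript in nt (horizontal axis, dotted line at 0), for TTACCCG on both strands (top, 26 sites) and TATAAA on the strand of the genes (bottom, 148 sites), coloured by the segment that holds the site. The Reb1 motif forms 1 cluster 67 to 149 nt before the transcript. TATAAA sites are spread over the upstream 3′ UTR, the gap and the downstream 5′ UTR.

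In promoter windows TATAAA on either strand was found before 53.9% of downstream genes (172 of 319, interval 48.4 to 59.3), 41.7% of upstream genes of the same pairs, 43.7% of all mRNAs and 45.4% of all coding genes. On the gene's own strand the shares were 32.9% (interval 28.0 to 38.2), 27.0%, 28.5% and 29.8%. That interval includes the shares of all mRNAs and of all coding genes. Downstream genes of farther pairs had 43.6% on either strand and 29.4% on their own. TATATA was found before 49.5% of downstream genes and 33.9% of all mRNAs. The windows of close pairs differ in what they contain: the upstream mRNA ended within 250 nt of the downstream start codon in 270 of 319 pairs, and its coding region reached into the window in 109. The part of the upstream 3′ UTR in these shares was not tested apart from its density given above.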

How the data were processed

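The 4 RNase V1 and 3 RNase S1 libraries were grouped by their labels. Their cleavage values were not analysed here, so their depth is unknown. The file used is a deposited annotation whose values are genome coordinates, counted from 1 per the design text, with start above end on the minus strand. The evidence behind the UTR ends, the genome build and the aligner were not given in the sources used here.

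Gaps are the bases between transcripts, and UTR and coding lengths are sums of the listed segments. Introns are spaces of at least 10 nt between exons. Python 3.11.15, pandas 2.3.3, numpy 2.4.6, scipy 1.17.1 and Biopython 1.88 were used. Names matched the R64 reference for 2999 of 3000 mRNAs. The coordinates do not follow R64: only 46 of 311 gaps had the same position in it. Sequences were therefore found by gene name, counting the listed UTR lengths from R64 stop and start codons, for the 311 of 319 pairs with the same stop-to-start distance. Promoter windows and proteins also came from the R64 genome, in place of ready-made tables. Proteins were aligned locally (BLOSUM62, gap opening 11, extension 1). Printed sequences are RefSeq, R64.

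The members and lists were chosen with earlier results of these data known. Named pairs follow a fixed rule: the 10 smallest gaps, the pairs at the limit, the 5 longest inner UTRs at each end, the longest runs, related proteins, same-list pairs and gaps of up to 30 nt. Other genes named (list examples, RAX1, PAD1-FDC1, PPH21, MSK1, DED1, motif examples, pairs with no listed inner UTR, pairs beyond the limit) were chosen after their values were seen. So were corrections of wrongly matched genes in the lists, which left the 3 same-list pairs as they were, the breakdown by gap, the sets without ribosomal proteins or of reference neighbours, the positions of motifs, base composition, and the searches for TATATA and AATAAA.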

Additional observations from a re-analysis of the deposited data

How the results depend on the processing

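The size of the set follows the distance allowed: 74 pairs at up to 100 nt and 496 at up to 300 nt, with median gaps of 67.5 and 174 nt. At up to 100 nt the median upstream 3′ UTR was 110 nt, the outer 5′ UTR 34 nt and the outer 3′ UTR 94 nt, and 0 pairs shared a list, against 6 at up to 300 nt. Lowering the identity to 25% gave 11 related pairs. On the gene's own strand the promoter shares were 32.9% for TATAAA and 4.39% for TTACCCG. The other 30 of 42 alternatives stayed within 1.5 times of a count or within the rank interval of a median. These included reference neighbours only (314 pairs), non-coding RNAs counted as neighbours (319), both inner UTRs listed (261), and, added after seeing the data, outer UTRs without genes of 2 pairs (43 and 107 nt). No paired analysis was possible because the annotation holds no value per library. UTR ends come from 1 annotation, so their precision per gene is unknown, and a gap to a gene with no listed 5′ UTR may include its leader.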

Other observations

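Close pairs were spread unevenly over the chromosomes, a feature looked at after the values were seen. They made up 34 of 87 tandem pairs on chromosome 10 (39.1%, Wilson interval 29.5 to 49.6), 19 of 50 on chromosome 3 (38.0%) and 9 of 24 on chromosome 1 (37.5%). On chromosome 16 they made up 11 of 101 (10.9%, 6.19 to 18.5), and over all chromosomes 22.1%. No test was made across the 16 chromosomes, and pairs joined in runs are not independent.

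The gap resembled the 5′ UTR in base composition more than the 3′ UTR. Median A and T content was 64.9% in the gap (n = 311), 64.9% in the downstream 5′ UTR (n = 260) and 70.3% in the upstream 3′ UTR (n = 299). The gap was richer in A and T than the upstream 3′ UTR in 65 of 299 pairs.

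Among upstream genes with at least 100 nt of 3′ UTR, TATATA stood in the last 100 nt of 67 of 128 (52.3%) and AATAAA in 13.3%, beside 50.4% and 19.4% of all such mRNAs. Both intervals of the close pairs, 43.7 to 60.8 and 8.46 to 20.2, include the value of all mRNAs.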
